A study of Homo sapiens with 4 samples.

Results

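The histone genes HIST1H1C, HIST1H2AC and HIST1H2BD lie in the histone cluster of chromosome 6, taken here as chr6:26017000-26285800 (hg19, 268.8 kb). Every peak of HuR-bound RNA that overlapped this stretch by at least 1 bp was taken as a member. After 5 Gy this gave 14 of 36216 peaks, and at 0 Gy it gave 21 of 47930. Of these, 4 at 5 Gy and 5 at 0 Gy touched 1 of the 3 genes, and the other 10 and 16 lay elsewhere in the cluster. The cluster and the genes were chosen by their peak positions and scores in these same lists, the strong 0 Gy peak at HIST1H2BD among them, so the values are a description and carry no test.

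RNA immunoprecipitation with sequencing (RIP-seq) recovers RNA together with a protein, here HuR, and with control immunoglobulin (IgG) as background. It was carried out on WS1, a human skin fibroblast line, exposed to 5 Gy of X-rays or to 0 Gy. Each of the 4 groups (HuR and IgG at 5 Gy, HuR and IgG at 0 Gy) had 1 library, and each peak list was called with HuR over the IgG library of the same dose. No genotype, clone, culture or time after irradiation is given in the sources used here. Without replicates, no difference between the lists below has a replicate check. Read depth cannot be read from the lists. The lists give no gene names, so fibroblast markers were not looked up.

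HuR, encoded by ELAVL1, binds U-rich and AU-rich stretches of RNA and is known for raising the stability of many mRNAs. Histone genes of this cluster are short genes without introns in their coding part, and most of their mRNAs are made during DNA replication and end in a stem-loop in place of a poly(A) tail. Some of them, HIST1H2AC and HIST1H2BD among them, are also known to give polyadenylated mRNAs in cells that have left the cell cycle. HIST1H2AC encodes an H2A and HIST1H2BD an H2B, a pair that forms a dimer in the nucleosome core. HIST1H1C encodes a linker histone, which binds DNA where it enters and leaves the nucleosome.

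In the RefSeq gene table the 3 members are H1-2 (HIST1H1C), H2AC6 (HIST1H2AC) and H2BC5 (HIST1H2BD), all protein-coding. They stand in a run of 32 protein-coding histone genes from H1-1 to H4C8, with 5 H1, 4 H2A, 8 H2B, 7 H3 and 8 H4 genes. H4C3, H1-6 and H2BC4 stand between HIST1H1C and HIST1H2AC, and H1-4 stands between HIST1H2AC and HIST1H2BD. A further 17 histone genes follow HIST1H2BD. That table is built on GRCh38 and the peaks on hg19, so peaks outside the 3 genes are named by position. Core histone genes of 1 class (H2A, H2B, H3 or H4) encode near-identical proteins and have similar coding sequences. The H1 genes differ more from each other. The sequences of the copies were not compared here. How reads that fit several copies were placed is not given in the sources used here. A peak over the coding part of a core histone gene, HIST1H2AC and HIST1H2BD included, is therefore uncertain as to its gene.

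At the gene starts, HIST1H2BD had a strong peak at 0 Gy and none listed at 5 Gy. HIST1H2AC had a start peak at both doses and HIST1H1C had none. As background on the genes, and with no link to these peaks tested, the 250 bases before the start of each member are shown. They are from RefSeq on GRCh38.p14, read 5′ to 3′ along the gene, from chr6:26056471-26056720 (minus strand) for HIST1H1C, chr6:26123922-26124171 (plus strand) for HIST1H2AC and chr6:26157871-26158120 (plus strand) for HIST1H2BD. Capitals mark 2 motifs on both strands. The first is CCAAT, which reads as ATTGG on the opposite strand. The second is TATAAA, which there reads as TTTATA.
HIST1H1C: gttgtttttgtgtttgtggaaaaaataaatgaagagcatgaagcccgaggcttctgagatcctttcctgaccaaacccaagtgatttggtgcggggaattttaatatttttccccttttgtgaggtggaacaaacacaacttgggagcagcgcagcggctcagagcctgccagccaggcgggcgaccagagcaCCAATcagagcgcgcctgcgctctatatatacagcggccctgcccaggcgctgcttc
HIST1H2AC: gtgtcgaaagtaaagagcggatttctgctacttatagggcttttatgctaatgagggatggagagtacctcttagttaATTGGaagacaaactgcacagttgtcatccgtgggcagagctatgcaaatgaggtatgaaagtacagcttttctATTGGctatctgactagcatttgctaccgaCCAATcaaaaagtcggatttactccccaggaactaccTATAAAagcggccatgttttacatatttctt
HIST1H2BD: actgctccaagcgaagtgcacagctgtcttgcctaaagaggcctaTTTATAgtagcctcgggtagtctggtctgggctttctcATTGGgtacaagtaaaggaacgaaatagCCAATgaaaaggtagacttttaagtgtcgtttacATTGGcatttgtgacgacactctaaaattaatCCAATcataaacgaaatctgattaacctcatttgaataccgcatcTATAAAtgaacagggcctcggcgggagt

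CCAAT, counted on both strands, occurred 1 time before HIST1H1C, 3 times before HIST1H2AC and 4 times before HIST1H2BD. TATAAA occurred 0, 1 and 2 times in the same order, and none of the marked stretches overlap. Windows were available for 30 of the 32 genes of the histone run. At least 1 CCAAT was found in 25 of these 30 windows (83.3%) and in 33.0% of 27305 windows, 1 per gene, of all genes. At least 1 TATAAA was found in 18 of the 30 windows of the run and in 11.1% of all. These counts describe letters in the genome and were not set against the peaks.

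HIST1H1C (chr6:26055968-26056699, 732 bp) had no peak in either list. The nearest peaks at 5 Gy lay 28.4 kb below and 30.8 kb above it, and the nearest at 0 Gy lay 23.6 kb below and 34.8 kb above. Of the 3 genes, it alone lacked a peak at both doses. As bounded here it was by far the shortest, against 14972 bp for HIST1H2AC and 13242 bp for HIST1H2BD. In the RefSeq table, however, it has 731 bp, more than the 519 bp of HIST1H2AC. Extended by 1 kb at each end, it still held 0 peaks in both lists. A link between gene length and the lack of a peak was not tested. The lists hold only peaks past the caller's threshold, so a lower level of HuR-bound HIST1H1C RNA would not be listed.

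HIST1H2AC (chr6:26124373-26139344, 14972 bp) had 2 peaks in each list, at its 2 ends. The RefSeq table gives this gene as 519 bp, and a gene of that length could not hold both peaks. The peak at the gene start scored 995.11 at 5 Gy (chr6:26124372-26125164, 793 bp) and 2725.75 at 0 Gy (chr6:26124330-26125019, 690 bp). The scores are the authors' peak scores, which begin at 60.01 for 5 Gy and at 60 for 0 Gy and grow with depth. The 5 Gy score was thus 0.37 times the 0 Gy score, the lowest ratio of any pair in the cluster. Within its own list this peak scored above 86.9% of all peaks at 5 Gy and above 94.1% at 0 Gy. Over the whole lists, 12.6% of 17408 pairs had a ratio this low or lower. Among pairs with a 0 Gy score of at least 1000, the share was 18.4%.

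The far peak of HIST1H2AC began 13.9 kb from the lower bound of the gene in both lists. It scored 559.2 at 5 Gy (chr6:26138247-26139257, 1011 bp) and 735.16 at 0 Gy (chr6:26138267-26139381, 1115 bp), a ratio of 0.76. This lies close to the middle of all pairs, of which 46.8% had a ratio as low or lower. The start peak and the far peak within these bounds thus had unlike ratios, 0.37 and 0.76. Pairs scoring at least 1000 at 0 Gy, as the start peak did, had a median ratio of 0.64, against 0.8 for all. Peaks covered 1803 bp of the gene at 5 Gy and 1725 bp at 0 Gy, so the covered length was nearly the same at both doses (104.5%).

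**Figure D1:**
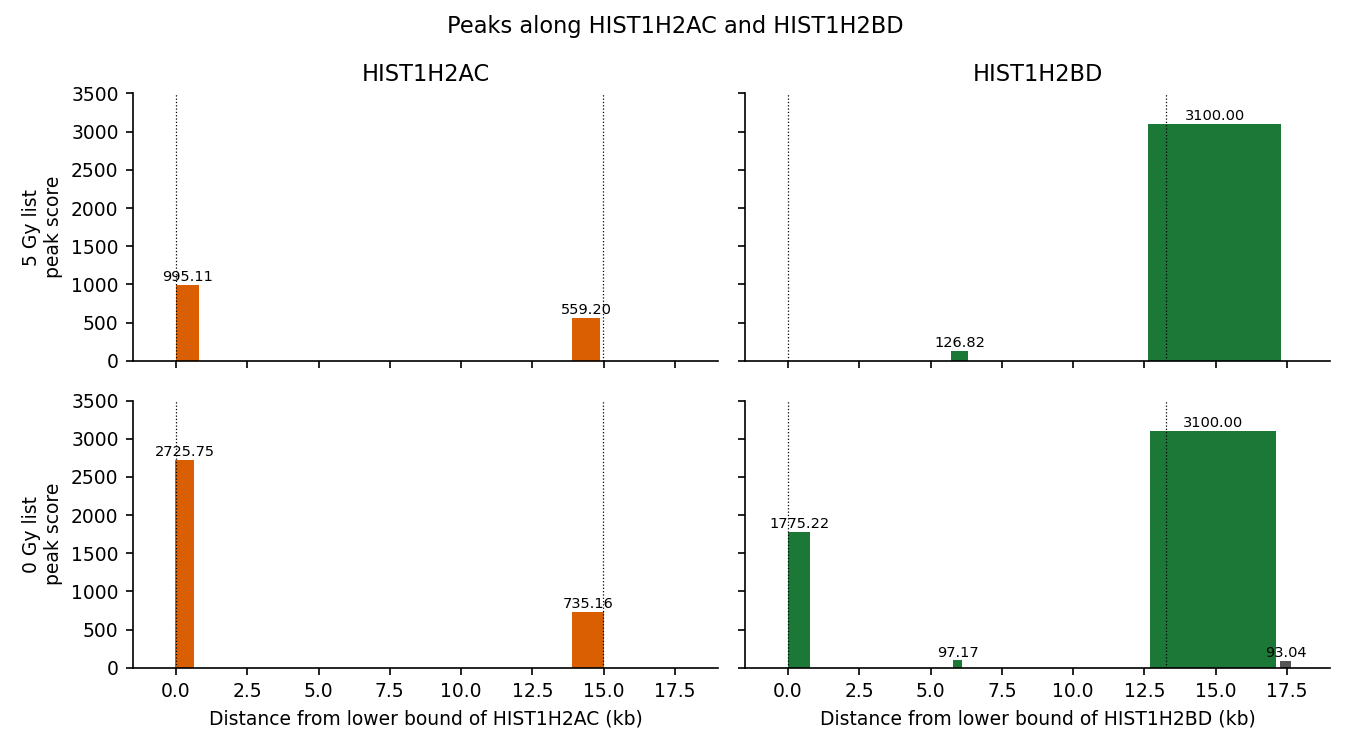
Peaks along HIST1H2AC (left) and HIST1H2BD (right) at 5 Gy (top) and 0 Gy (bottom). The x axis is the distance from the lower bound of the gene in kb, bar width is peak length, bar height is the authors' peak score (printed above each bar), and dotted lines mark the gene bounds. At HIST1H2AC both peaks are present in both lists, with the start peak at 995.11 at 5 Gy and 2725.75 at 0 Gy. At HIST1H2BD the start peak of 1775.22 appears at 0 Gy only, while the peak across the far end scores 3100 in both lists; the grey bar at 0 Gy is a separate peak beyond the gene.

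HIST1H2BD (chr6:26158336-26171577, 13242 bp) had 2 peaks at 5 Gy and 3 at 0 Gy. At its start the 5 Gy list held no peak, against a 774 bp peak with a score of 1775.22 in the 0 Gy list (chr6:26158336-26159109). The lower bound of the gene used here is the start of that peak, and the RefSeq table gives the gene 13229 bp. The nearest 5 Gy peaks lay 5.0 kb above, inside the gene, and 19.1 kb below. A signal at the gene start below the caller's threshold would not be listed at 5 Gy. Each list also rests on the IgG library of its own dose. The 0 Gy start peak scored above 91.8% of the 0 Gy list. By score it stood at rank 8 among the 20064 peaks of the 0 Gy list without an overlap at 5 Gy, and at rank 3 among the 753 of these on chromosome 6. The median score of all such peaks was 87.4. The gene was chosen with this strong 0 Gy peak known, so these ranks were fixed in part by that choice.

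Further along HIST1H2BD both lists held a peak in the body and one across the far end. A short peak in the body of the gene scored 126.82 at 5 Gy (chr6:26164061-26164632, 572 bp) and 97.17 at 0 Gy (chr6:26164127-26164435, 309 bp). Both scores are low in their lists, above 45.0% of the peaks at 5 Gy and 34.5% at 0 Gy. Across the far end of the gene ran a peak of 4636 bp at 5 Gy (chr6:26170978-26175613) and of 4417 bp at 0 Gy (chr6:26171046-26175462). Both were tied at a score of 3100, where the order of peaks is not resolved. Most of this peak lay beyond the gene, with 600 bp inside and 4036 bp beyond at 5 Gy, and 532 bp inside and 3885 bp beyond at 0 Gy. At 5 Gy it also reached, by 10 bp, a separate small peak of the 0 Gy list (chr6:26175604-26175964, score 93.04).

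Within its bounds HIST1H2BD was covered over 1172 bp at 5 Gy and 1615 bp at 0 Gy (72.6%). RefSeq lists 2 curated transcripts for the gene, and the table places the long noncoding RNA H2BC6-AS1 over it from 2.2 kb after its start to beyond its end, and the pseudogene LARP1P1 inside it. The peaks carry no strand, so those in the body of HIST1H2BD cannot be told apart from H2BC6-AS1 or LARP1P1, and neither can the part of the far-end peak that lies over H2BC6-AS1. H2BC6-AS1 ends 14652 bp from the lower bound of HIST1H2BD in that table, and the far-end peak ends 17277 bp from it at 5 Gy and 17126 bp at 0 Gy on hg19. In that table neither of these genes reaches the first 2153 bp of HIST1H2BD. The lists also cannot separate a change in the amount of a transcript, or in the cells that make it, from a change in its recovery with HuR.

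The 0 Gy peaks most like the start peak of HIST1H2BD were sought among those without an overlap at 5 Gy and with a 5 Gy peak within 20 kb, by the difference in score. They lay on chromosome 10 (chr10:71922345-71925090, score 1871.21), chromosome 1 (chr1:149909493-149917452, score 1634.18) and chromosome 3 (chr3:128885199-128889441, score 1611.79). The nearest 5 Gy peak was 0.4 kb away for the first, 11.6 kb for the second and 0.3 kb for the third. These peaks were 2746, 7960 and 4243 bp long, against 774 bp at HIST1H2BD. Likeness in score within 1 list is a description of 2 libraries.

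The gene HFE, which is not a histone gene, also lies between the bounds, so cluster values need not be of histone RNA alone. The rest of the cluster held 10 peaks at 5 Gy and 16 at 0 Gy, which were not joined to genes. A peak at its upper end was tied at a score of 3100 at both doses (chr6:26285081-26285834 at 5 Gy, chr6:26285064-26285830 at 0 Gy). Both run past the upper bound, by 34 bp at 5 Gy and 30 bp at 0 Gy. Further down lay a pair of adjoining peaks. The lower of them scored 2289.27 at 5 Gy (chr6:26216251-26216936) and was also tied at 3100 at 0 Gy (chr6:26216414-26216950). The upper scored 906.1 at 5 Gy (chr6:26217092-26217813) and 1330.83 at 0 Gy (chr6:26217140-26217701). A long peak at chr6:26224880-26227713 went the other way, with 1525.06 at 5 Gy and 960.02 at 0 Gy (chr6:26225055-26227756), a ratio of 1.59. The score order of the doses was thus not the same at all peaks of the cluster.

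**Figure D2:**
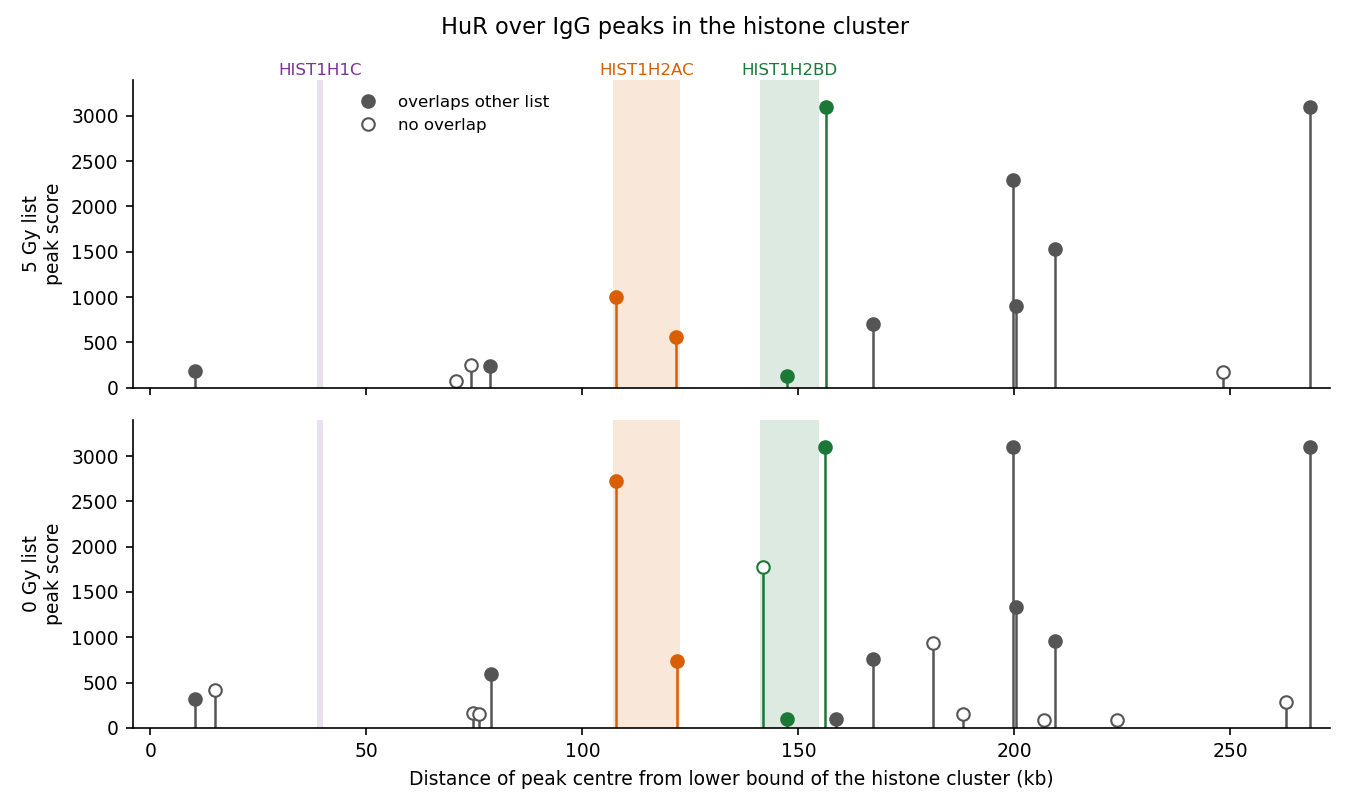
Peaks of HuR over IgG along the histone cluster in the 5 Gy list (top) and the 0 Gy list (bottom). The x axis is the distance of the peak centre from the lower bound of the cluster in kb, the y axis the authors' peak score, shaded bands mark the 3 genes, filled circles overlap a peak of the other list and open circles do not. HIST1H1C holds no peak in either list, and of the open circles the one at the start of HIST1H2BD at 0 Gy (1775.22) is the highest.

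Over the whole cluster, 3 of the 14 peaks at 5 Gy (21.4%) had no overlap at 0 Gy, against 27.0% of all 5 Gy peaks. At 0 Gy, 9 of 21 peaks (42.9%) had no overlap at 5 Gy, against 41.9% of all 0 Gy peaks. Both shares are near those of the full lists. The share with an overlap was 78.6% at 5 Gy (exact binomial 95% interval 49.2 to 95.3) and 57.1% at 0 Gy (34.0 to 78.2), intervals that cover counting error only and treat peaks as independent. The next share was fixed in part by the choice of the cluster. Of the 6 cluster peaks scoring at least 1000 at 0 Gy, 1 had no overlap, the HIST1H2BD start peak, against 0.477% of all such peaks.

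The 3 unmatched peaks at 5 Gy scored at most 252.04, and that peak (chr6:26091055-26091400) lay 136 bp from a 0 Gy peak scoring 158.62. After the HIST1H2BD start peak, the highest unmatched score at 0 Gy was 935.63, for a 2754 bp peak at chr6:26196759-26199512. The nearest 5 Gy peak was 12.3 kb from it. These unmatched peaks are named because of their values. The median score of the 9 unmatched 0 Gy peaks of the cluster was 158.62.

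In 10 cases a 5 Gy peak and a 0 Gy peak overlapped each other and no further peak, and in 8 of these both scores were under 3100. The 5 Gy score was the lower in 6 and the higher in 2 of the 8, with ratios of 5 Gy to 0 Gy from 0.37 to 1.59 and a median of 0.72. Over all 17408 such pairs, the 5 Gy score was lower in 63.9% and the median ratio was 0.8, and for the 749 on chromosome 6 the median was 0.76. The 5 Gy score was at least 2-fold lower in 2 of the 8 pairs, against 24.5% of all pairs, and at least 2-fold higher in 0 of 8, against 8.48%. These shares are again close to those of the full lists. The 2 pairs were the start peak of HIST1H2AC and a peak at chr6:26094388-26097018, which scored 239.18 at 5 Gy and 594.07 at 0 Gy.

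**Figure D3:**
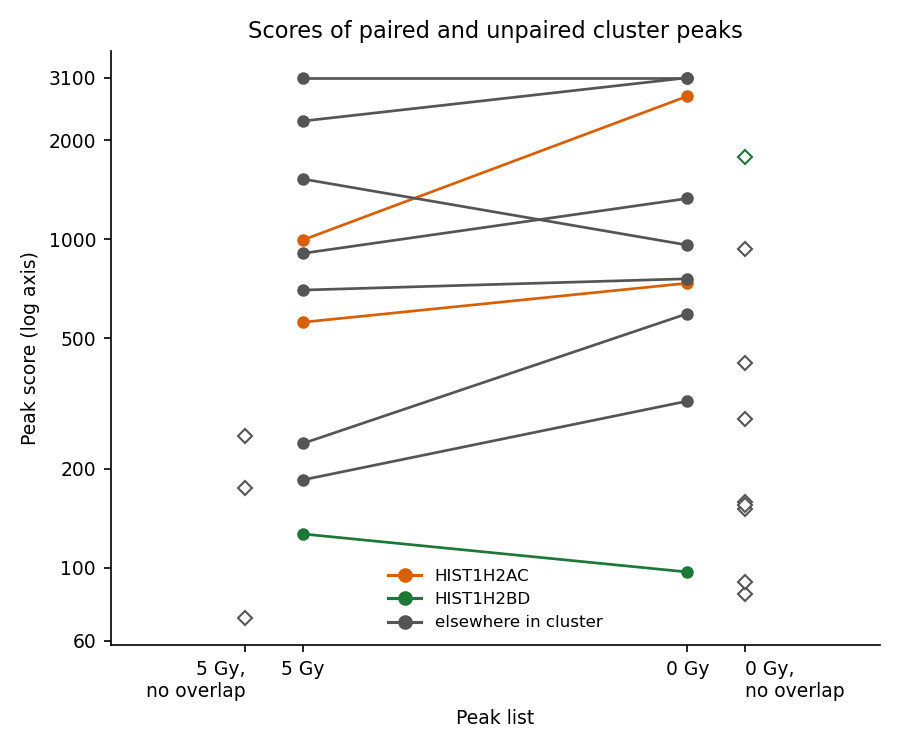
Scores of the 10 one-to-one pairs of cluster peaks, 5 Gy left and 0 Gy right, on a log axis, with lines joining the peaks of a pair and diamonds for peaks without an overlap. The far-end peak of HIST1H2BD, tied at 3100 in both lists, is not drawn because its 5 Gy peak overlaps a second 0 Gy peak. Lines rise towards 0 Gy in 7 pairs, the steepest at the start of HIST1H2AC, and the green diamond at 1775.22 is the HIST1H2BD start peak.

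The lengths of the strong peaks were set against the 774 bp of the HIST1H2BD start peak, a length taken from a member. At 5 Gy, 2 of the 4 cluster peaks scoring at least 1000 were no longer than this, against 23.0% of all 4730 such peaks. At 0 Gy it was 5 of 6, against 28.6% of 5866, and 4 of 5 without the HIST1H2BD start peak, which meets its own length by construction. Another of them, at 767 bp, lay just under that length. The median length of the 6 was 728.5 bp, against 1726 bp for all such peaks. The exceptions at 5 Gy were the far-end peak of HIST1H2BD and the peak at chr6:26224880-26227713. At 0 Gy the exception was the far-end peak of HIST1H2BD. In 6 of the 10 pairs of the cluster the longer peak was the one at 5 Gy, against 58.3% of all pairs.

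**Figure D4:**
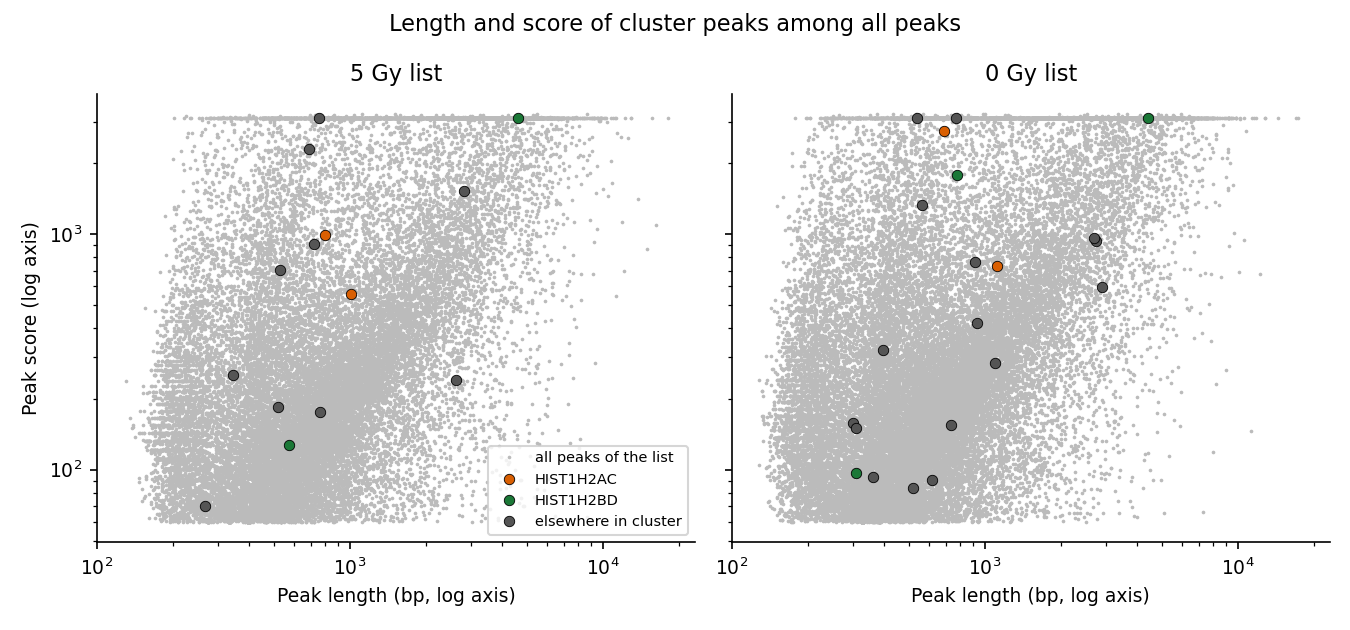
Peak length (x, bp) against the authors' peak score (y), both on log axes, for all peaks of the 5 Gy list (left) and the 0 Gy list (right) in light grey and for cluster peaks in colour. At 0 Gy 5 of the 6 cluster peaks above 1000 lie at or under 774 bp, the length of the HIST1H2BD start peak, itself among the 5, where 28.6% of all peaks above 1000 lie.

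Counted as peaks, the cluster at 5 Gy came to 66.7% of its number at 0 Gy (exact 95% interval of counting error 31.4 to 137.5), against 75.6% for the whole lists and 76.5% on chromosome 6. The interval is wide enough to hold both equal numbers and the values of the lists. Peaks of the cluster had a summed length of 17.1 kb at 5 Gy and 23.7 kb at 0 Gy (71.9%), against 91.7% for the whole lists. Over stretches of equal length this measure varied widely, with 127.7% below the cluster and 90.8% above it, and it has no counting interval. The cluster held 52.1 peaks per Mb at 5 Gy and 78.1 at 0 Gy, where chromosome 6 held 8.4 and 11.0. The chromosome values are over its whole span from the first peak to the last. The stretch below the cluster held 6 peaks at either dose, and that above it held 11 at 5 Gy and 15 at 0 Gy. The median score in the cluster was 629.85 at 5 Gy and 594.07 at 0 Gy, against 143.4 and 136.6 over the whole lists. Because the cluster was chosen by its peaks, its peak density and median score were fixed in part by that choice.

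The bounds of the cluster were not close to any peak left out. The next peaks below it were 28.0 kb away at 5 Gy (score 61.74) and 27.9 kb away at 0 Gy (103.69). The first peaks inside scored 185.28 at 5 Gy and 321.83 at 0 Gy. Above it, the next peaks were 97.9 kb away at 5 Gy (355.41) and 97.8 kb away at 0 Gy (333.74), and the last inside were those tied at 3100.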

How the data were processed

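The authors trimmed with cutadapt 1.9.1 and aligned to hg19 with Bowtie2 2.2.4, per the submitters' processing notes. The authors deposited 1 peak list per dose. Each peak has a position and a score, and peak names begin with MACS. The score as deposited has no stated unit, and its form and lowest value match a scaled negative log10 of the p-value 1e-6 in the list names. The caller version, and how reads fitting several places were handled, is not given in the sources used here.

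Starts were counted from 1. Peaks of the 2 lists that overlapped by 1 bp were matched in Python 3.11.15 with numpy 2.4.6, pandas 2.3.3 and scipy 1.17.1. Scores of 3100 and above were treated as 1 class and left out of ratios. The matching was checked on simulated data. Named were all peaks at the 3 genes, the 3 highest-scoring peaks of each list elsewhere in the cluster, the nearest peaks outside it and the 3 most like the HIST1H2BD start peak. Members, gene bounds and lists were chosen with earlier results of these data known. Prepared marker lists were not used, for want of an hg19 annotation.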

Additional observations from a re-analysis of the deposited data

How the results depend on the processing

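With 6 kinds of alternative setting, 13 of 17 recomputed values equalled the reported value or lay within its counting interval and 4 moved. Those intervals are wide, so a count or share could hardly move, and lengths, which have no interval, moved with any change. Among the 13, the number of cluster peaks at 5 Gy (66.7% of that at 0 Gy) was 76.5% at a score of at least 100. With peaks within 1 kb counted as matched, the overlap shares (78.6% and 57.1%) became 85.7% at 5 Gy and 66.7% at 0 Gy. Placing peaks by their midpoint changed no value. Of those that moved, the summed length in the cluster (71.9%) was 76.7% at a score of at least 100. The covered length of HIST1H2AC (104.5%) was 99.9% with the gene extended by 1 kb at each end, where 1804 bp were covered at 5 Gy and 1805 bp at 0 Gy, so the order of the doses turned. That of HIST1H2BD (72.6%) was 83.1% with the same extension and 89.7% at a score of at least 100, a setting that drops its 0 Gy peak of 97.17. For HIST1H1C no percentage exists, because it has no peak in either list. No paired analysis was possible because a group holds a single library. Unknown depth limits all comparisons of score.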
